A study of Mus musculus with 10 samples.

Results

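The 38 genes described here encode the machinery that shortens poly(A) tails, removes caps and carries out microRNA silencing. They are the subunits of CCR4-NOT, its Tob and Btg adaptors, the Pan2, Pan3 and Parn deadenylases, the decapping enzyme with its cofactors and activators, the Argonaute and GW182 proteins, the microRNA processing enzymes, the exonuclease Xrn1 and the helicase Upf1. They were taken as a fixed list of symbols, matched by Ensembl ID through GENCODE M21. All 38 were found among the 55416 genes of the count table, and all 38 were among the 20550 genes that passed the filter on low counts. The study recovered RNA from mouse pituitary lysates with a pool of antibodies to Musashi1 and Musashi2 (Musashi IP) or with control rabbit IgG, and asked which RNAs the Musashi proteins bind. The mice were sighted FVB animals (FVB.129P2-Pde6b+Tyrc-ch/Ant) aged 8 to 10 weeks with no further treatment, and 6 pituitaries were pooled into each lysate and split equally between the antibodies. Of the 5 lysates used here, 2, 5 and 6 came from females and 3 and 7 from males, which gives 5 IgG and 5 Musashi IP libraries. Control IgG brings down RNA without selecting for Musashi, so enrichment below is a ratio to that background. No library of unselected lysate RNA was used, so levels and abundance below are those in the IgG or Musashi IP libraries.

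Most mRNAs lose their poly(A) tail before anything else in their decay: Pan2-Pan3 trims long tails and CCR4-NOT removes the rest. Tail loss is followed by removal of the cap by Dcp2, with help from Dcp1, Edc3, Edc4, Ddx6, Lsm14 and Patl1, and by digestion of the body from its 5' end by Xrn1. MicroRNAs reach the same machinery, since Argonaute proteins loaded with a microRNA bind GW182 proteins, which in turn recruit CCR4-NOT and Pan2-Pan3. Musashi proteins are regulators of translation that bind short motifs mainly in the 3' untranslated region (3' UTR) of mRNAs.

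Musashi sites were taken as a G or A, then 1 to 3 U, then AGU, that is GUAGU and its forms with more U (GUUAGU, and with a further U, GUUUAGU), and the same beginning with A: AUAGU, then AUUAGU and lastly AUUUAGU, searched on the transcript strand with overlaps allowed. The windows shown next come from the 3' UTRs of 8 of the 9 enriched genes described below (none is shown for Dcp2) and of 3 genes that hold such motifs and were not enriched (Ago3, Xrn1 and Cnot4, chosen after their values were seen). Each is the GUAGU nearest the stop codon, or for Lsm14a, where no GUAGU was found, the nearest motif of any form, an AUAGU. Capitals mark that motif, and 8 bases are given on each side, written 5' to 3' as RNA from GENCODE M21 transcripts. In the Tnrc6b window a further GUAGU overlaps the marked motif and ends in the lower-case bases.
Ddx6: cuuaggugGUAGUguugcuuu
Lsm14b: ugagugaaGUAGUgggaaggg
Lsm14a: guugcugcAUAGUcuacaaac
Ago1: acuguucaGUAGUuccuccug
Ago2: uacuuucuGUAGUagcccaug
Tnrc6b: acaucaauGUAGUaguucucu
Btg1: uaagcaugGUAGUacuggaaa
Tob2: uuuuacauGUAGUuuucuaua
Ago3: ucuuuuuuGUAGUgaguuugu
Xrn1: cuugcuguGUAGUccuggcug
Cnot4: uggaccucGUAGUugcuaaag
On GRCm38, the build of that annotation and not of the counts (GRCm39), these exonic 3' UTR windows lie at chr9:44638181-44638201 (Ddx6, + strand), chr2:180034882-180034902 (Lsm14b, +), chr7:34345926-34345946 (Lsm14a, -), chr4:126437409-126437429 (Ago1, -), chr15:73104461-73104481 (Ago2, -), chr15:80931111-80931131 (Tnrc6b, +), chr10:96619099-96619119 (Btg1, +), chr15:81850463-81850483 (Tob2, -), chr4:126344615-126344635 (Ago3, -), chr9:96053834-96053854 (Xrn1, +) and chr6:35046092-35046112 (Cnot4, -). A match is a string of letters in the annotated 3' UTR and was not measured as a bound site.

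Library totals ran from 6.67 to 13.0 M counts, and member counts from 123 to 10340 in a library, so no member was near the detection limit. Hormone-cell mRNAs were present in every library: Gh, Prl, Pomc, Tshb, Fshb, Cga, Pou1f1 and Chga together held 13400 to 51600 CPM (counts scaled to library size, with TMM factors) in IgG and 14800 to 40100 in Musashi IP. Of these 8, Fshb rose 4.86-fold in Musashi IP (83.7 to 429 CPM on average, adjusted p = 0.00492, edgeR, higher in 5 of 5 lysates), and the other 7 did not pass. Of 5 immune markers 2 fell in Musashi IP (Ptprc and Csf1r; summed level of the list 37.5 to 55.6 CPM in IgG and 22.9 to 43.9 in Musashi IP), and of 4 erythroid markers tested 3 fell (461 to 1250 and 271 to 688 CPM), while 0 of 5 endothelial and 0 of 5 mural or fibroblast markers passed. The IgG library of lysate 2 stood apart in these vascular genes, with 1110 counts of Kdr against 184 in its Musashi IP and 2460 of Rgs5 against 344, and it had the highest share of mitochondrial counts (2.77%). Without lysate 2, 13 of the 38 genes were higher in place of 9, and over all genes tested 22.6% were higher in place of 18.5%. The part of these markers in the results below was not tested. Both libraries of a lysate came from the same pooled pituitaries, so these values compare antibodies and do not count cells. Lysate 6 also stood apart: its Musashi IP library had the lowest scaling factor (0.784), and 61.2% of all genes tested, and 31 of the 38 genes here, had their largest Musashi IP to IgG ratio, in either direction, in that lysate. Values without lysate 6 are therefore given beside the enriched genes, Edc4 and the CCR4-NOT genes.

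Within this machinery, the mRNAs of the decapping enzyme Dcp2, of the helicase Ddx6 and the Lsm14 proteins, of Ago1 and Ago2, of Tnrc6b and of the adaptors Btg1 and Tob2 were enriched with the Musashi antibodies. None of the 11 CCR4-NOT genes passed the test, nor did Pan2, Pan3, Parn, the microRNA processing enzymes, Xrn1 or Upf1. In all, 9 of 38 genes were higher in Musashi IP and 0 were lower (edgeR with the lysate as a block, Benjamini-Hochberg adjusted p under 0.05), with 17 at an unadjusted p under 0.05. Over all 20550 genes tested, 18.5% were higher and 8.4% lower, and over the 14202 protein-coding genes, 25.7% and 4.01%. The members' share, 23.7%, was thus near that of protein-coding genes in general. Their median log2 fold change was 0.14, against -0.066 over all genes tested and 0.089 over protein-coding genes. Without lysate 6 the members' median fell to 0.061 while that of all genes tested rose to -0.0415. Without lysate 7 both fell, to 0.061 and -0.134, and without lysate 2 both rose, to 0.218 and -0.0182. Without lysate 3 the members' median was 0.0787 and that of all genes tested -0.16, and without lysate 5 they were 0.124 and -0.0551. The same 9 genes passed without lysate 6, and the values of the other 29 then ran from -0.22 to 0.28, in place of -0.28 to 0.46. With library totals in place of TMM, which moved the median of all genes from -0.066 to -0.24, 6 were higher and 5 lower, and over all genes 3153 were higher and 4068 lower in place of 3804 and 1727.

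**Figure D1:**
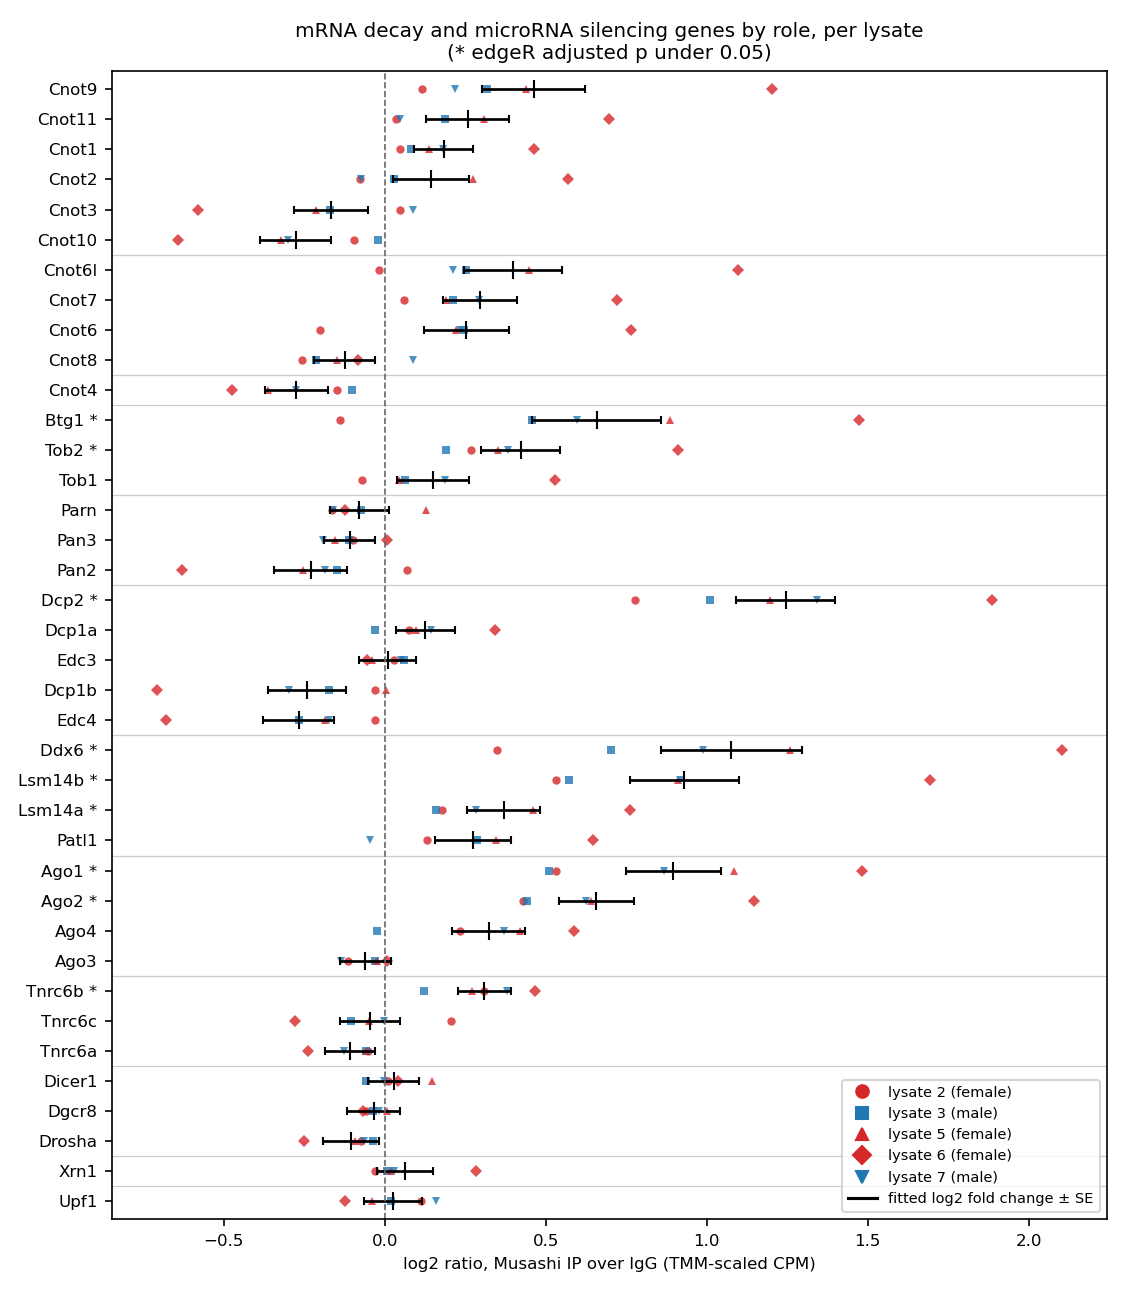
Log2 ratio of Musashi IP over IgG (x axis) for each of the 38 genes, grouped by role; points are single lysates (red female, blue male), bars the fitted log2 fold change ± SE, and a star marks an adjusted p under 0.05. Dcp2, Ddx6, Lsm14b and Ago1 lie farthest to the right, the CCR4-NOT genes run from -0.28 to 0.46 with none past the threshold, and the diamond of lysate 6 is the outermost point for most genes.

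The catalytic subunit of the decapping complex stood apart from its cofactors. Dcp2, which cleaves the cap, was the most enriched gene of the list. IgG libraries of lysates 2, 3, 5, 6 and 7 held 64.1, 56.7, 54.3, 63.0 and 66.7 CPM of Dcp2, and the Musashi IP libraries of the same lysates 110, 114, 125, 233 and 170. Every Musashi IP library lay above every IgG library, with the females of lysate 6 highest. The fold change was 2.37 (log2 1.25 ± 0.15, mean ± SE, n = 5 lysates; adjusted p = 0.00336, edgeR), and log2 1.09 without lysate 6. Its 3' UTR of 7240 nt holds 22 Musashi motifs. The cofactors did not pass: Dcp1a, an activator that binds Dcp2, stood at 0.13 ± 0.09, its relative Dcp1b at -0.24 ± 0.12, and the scaffold proteins Edc3 and Edc4 at 0.01 ± 0.09 and -0.27 ± 0.11. Edc4, the most abundant of the complex per length (23.1 CPM per kb of exon in IgG), had 126, 120, 131, 142 and 115 CPM in IgG and 124, 100, 115, 88.7 and 102 in Musashi IP. Its Musashi IP level was the lower in all 5 lysates, the groups overlapped, and adjusted p was 0.101 (edgeR); without lysate 6 the value was -0.16. Edc4 passed as lower under library totals, the 2 CPM filter and the length and GC correction. Exons of Edc3 overlap those of Clk3 on the opposite strand over 22.1% of their length, and whether counting used strand is not given in the sources used here.

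Activators of decapping that hold mRNAs in P-bodies, the granules where repressed mRNAs gather, were enriched in 3 of 4 cases. Ddx6, the RNA helicase of these granules, had 310, 226, 248, 236 and 269 CPM in IgG and 395, 368, 594, 1010 and 533 in Musashi IP. The groups did not overlap, but the ratios were spread widely, from log2 0.35 in lysate 2 to 2.10 in lysate 6. Its fold change was 2.11 (log2 1.08 ± 0.22, adjusted p = 0.0099, edgeR), or log2 0.83 without lysate 6, and without lysate 5 it missed the threshold (1.03, adjusted p = 0.0523). Per length Ddx6 was second only to Tnrc6a among the 38 genes in IgG, at 32.1 CPM per kb, and at 72.3 CPM per kb it was the highest in Musashi IP.

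Lsm14a and Lsm14b are paralogous partners of Ddx6 that repress translation. For Lsm14b, IgG libraries held 38.5, 29.2, 31.5, 29.8 and 27.3 CPM and Musashi IP libraries 55.7, 43.6, 59.4, 96.9 and 51.7, without overlap. This was a 1.91-fold difference (log2 0.93 ± 0.17, adjusted p = 0.00673, edgeR), and log2 0.74 without lysate 6. Lsm14a changed less, from 83.5, 78.3, 69.5, 80.0 and 78.9 CPM to 94.6, 87.5, 95.8, 136 and 96.0. The Musashi IP libraries were again all above the IgG libraries, by a smaller step (log2 0.37 ± 0.11, adjusted p = 0.0409, edgeR; 0.27 without lysate 6), and 8 of 14 other settings ended this call, among them DESeq2 (adjusted p = 0.0668) and leaving out lysate 3, 5 or 7 (edgeR 0.0812, 0.146 and 0.132). Patl1, a scaffold between Ddx6 and the decapping enzyme, did not pass (0.27 ± 0.12, adjusted p = 0.113, edgeR). Both Lsm14 genes are exceptions to the long 3' UTRs of most enriched members, with 1346 nt for Lsm14a and 1181 nt for Lsm14b.

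**Figure D2:**
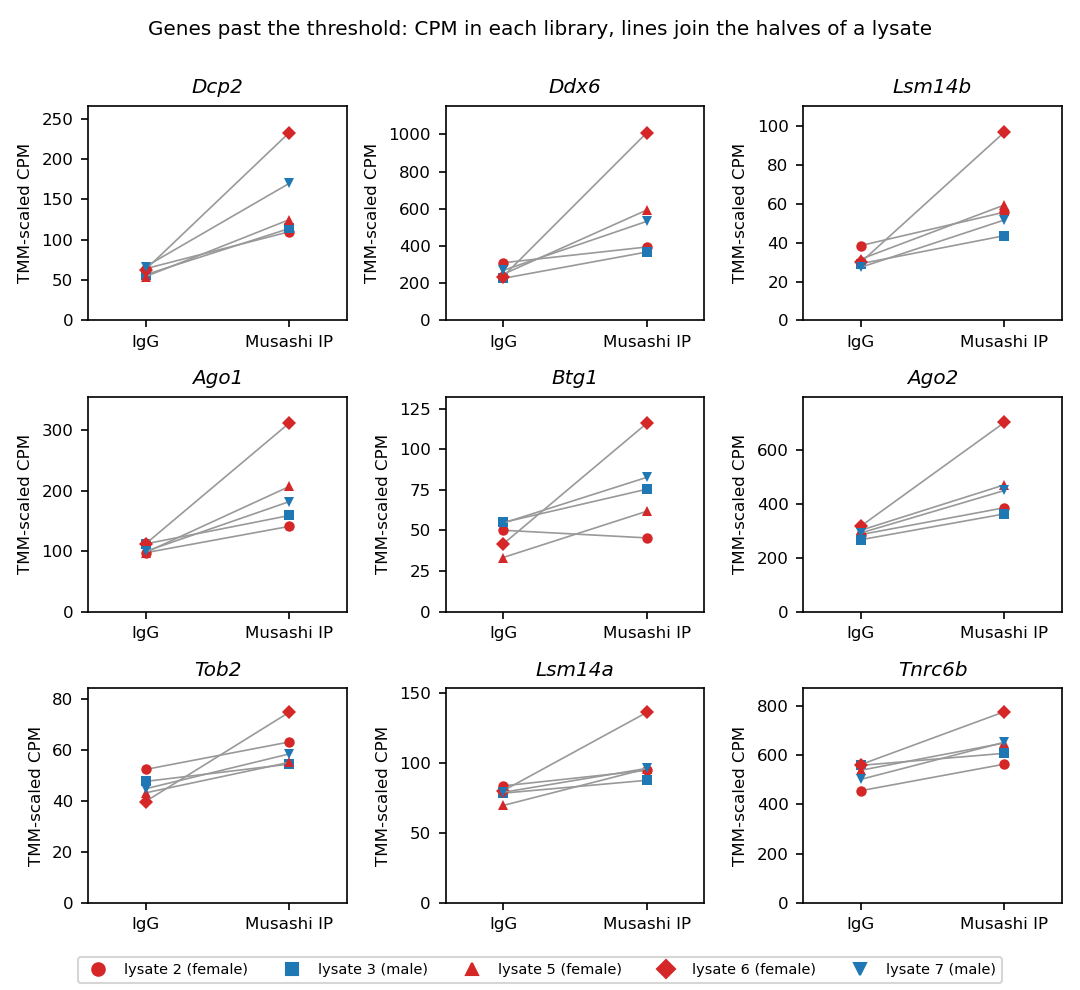
TMM-scaled CPM (y axes, from 0) of the 9 genes past the threshold in each IgG and Musashi IP library; lines join the libraries of a lysate, red marks females and blue males. In all but Btg1 every Musashi IP library lies above every IgG library, and lysate 6 rises most steeply.

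Argonaute mRNAs, which encode the proteins that carry microRNAs, divided by paralogue. Ago1 had 97.4, 112, 97.7, 112 and 99.6 CPM in IgG and 141, 159, 207, 312 and 182 in Musashi IP, so the groups were fully separate. It was 1.86-fold higher (log2 0.90 ± 0.15, adjusted p = 0.00515, edgeR; 0.75 without lysate 6). Ago2, the paralogue that can cut its target, is the most abundant Argonaute per length here (20.9 CPM per kb in IgG). Its IgG libraries held 286, 267, 302, 317 and 292 CPM and its Musashi IP libraries 386, 363, 471, 703 and 450, again with no overlap (1.58-fold, log2 0.66 ± 0.12, adjusted p = 0.00625, edgeR; 0.54 without lysate 6). Ago3 did not follow: its IgG values of 176, 228, 236, 221 and 272 CPM and Musashi IP values of 162, 224, 232, 222 and 247 nearly coincided (-0.06 ± 0.08, adjusted p = 0.584). Ago4 was the least abundant member of the whole list per length (4.35 CPM per kb in IgG) and lay between them at 0.32 ± 0.11 (adjusted p = 0.0643, edgeR).

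The ratio of Ago1 exceeded that of Ago3 in 5 of 5 lysates, by log2 0.96 ± 0.38 (mean ± SD of the difference within a lysate, n = 5), and that of Ago2 exceeded Ago3 by 0.72 ± 0.26, also in 5 of 5. Each gave p = 0.0625 in an exact two-sided sign-flip test over lysates, the smallest value that 5 lysates allow, and 0.0729 after Benjamini-Hochberg adjustment over the 14 paralogue pairs compared. This test cannot reach 0.05 with 5 lysates. The pairs compared here and below were chosen after their values were seen, so agreement of the lysates is no independent evidence. Of the 14 pairs, 12 went 1 way in 5 of 5 lysates, among them Dcp1a and Dcp1b, neither of which passed. Ago3 is annotated with the longest 3' UTR of the list, 12742 nt with 40 motifs, but also with a form of 196 nt that has 0 motifs, and which form these pituitaries use was not measured. Ago1, Ago3 and Ago4 share much coding sequence with Ago2, and how reads that fit several genes were treated is not given in the sources used here.

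GW182 proteins link Argonautes to the deadenylases, and of their 3 genes Tnrc6b passed. IgG libraries held 455, 558, 538, 561 and 501 CPM of Tnrc6b and Musashi IP libraries 563, 607, 649, 776 and 652. The lowest Musashi IP value, 563, was just above the highest IgG value, 561, so the separation was narrow. The difference was 1.24-fold (log2 0.31 ± 0.08, adjusted p = 0.0271, edgeR; 0.27 without lysate 6), and it passed under 6 of 14 other settings, with 0.13 and adjusted p = 0.276 under library totals. Tnrc6a, the most abundant gene of the list per length (46.2 CPM per kb in IgG), had 470, 563, 614, 644 and 644 CPM in IgG and 453, 540, 590, 546 and 590 in Musashi IP. It was slightly lower in each lysate, with overlapping groups (-0.11 ± 0.08, adjusted p = 0.316, edgeR), and Tnrc6c stood at -0.05 ± 0.09. Tnrc6b exceeded Tnrc6a by log2 0.42 ± 0.20 and Tnrc6c by 0.36 ± 0.24 (SD, 5 of 5 lysates each, exact p = 0.0625).

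The adaptors that bring CCR4-NOT to its targets were enriched in 2 of 3 cases. Btg1, an antiproliferative protein that binds the Cnot7 and Cnot8 deadenylases, had 50.1, 54.9, 33.3, 41.6 and 54.5 CPM in IgG and 45.4, 75.4, 61.8, 116 and 82.7 in Musashi IP. Lysate 2 went the other way (log2 -0.14), so the groups overlapped and 4 of 5 lysates were higher. Its fitted difference was 1.58-fold (log2 0.66 ± 0.20, adjusted p = 0.0407, edgeR), 0.45 without lysate 6, and it missed the threshold when lysate 3, 5 or 7 was left out (edgeR adjusted p = 0.0688, 0.137 and 0.0907). Tob2, which also binds the poly(A)-binding protein, had 52.4, 47.7, 43.2, 39.8 and 44.8 CPM in IgG and 63.2, 54.5, 55.2, 74.9 and 58.5 in Musashi IP. These groups were separate (1.34-fold, log2 0.42 ± 0.12, adjusted p = 0.0345, edgeR; 0.30 without lysate 6), but 6 of 14 settings ended the call, among them leaving out lysate 3, 5 or 7 (0.0656, 0.104 and 0.12) and the length and GC correction (0.23, adjusted p = 0.146). Its paralogue Tob1, at 20.5 CPM per kb in IgG against 6.84 for Tob2, had 56.0, 53.0, 42.9, 36.9 and 45.5 CPM in IgG and 53.3, 55.4, 44.3, 53.3 and 51.8 in Musashi IP, which overlapped (0.15 ± 0.11).

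Of the 6 scaffold and structural subunits of CCR4-NOT, 0 passed. Cnot1, the scaffold on which the complex is built, had 307, 311, 348, 319 and 354 CPM in IgG and 317, 329, 384, 440 and 402 in Musashi IP. Each lysate gave a slightly larger value with the Musashi antibodies, and the groups overlapped (0.18 ± 0.09, adjusted p = 0.156, edgeR). Cnot2, the most abundant of these structural subunits per length (21.3 CPM per kb in IgG), had 70.6, 86.1, 85.3, 79.8 and 111 CPM and then 66.8, 87.9, 103, 119 and 106. The IgG and Musashi IP values overlapped, and 3 of 5 lysates were higher in Musashi IP (0.14 ± 0.12). Cnot9 had the largest value of the complex, 0.46 ± 0.16 (adjusted p = 0.061), with a ratio above 0 in 5 of 5 lysates (log2 1.20 in lysate 6 and 0.12 to 0.44 in the others). Without lysate 6 it was 0.28 (adjusted p = 0.0565, edgeR), still the largest of the complex, and it passed without lysate 2 (0.60, adjusted p = 0.0282, edgeR) and with no filter on low counts (0.47, adjusted p = 0.0214). Cnot11 stood at 0.26 ± 0.13, Cnot3 at -0.17 ± 0.11 and Cnot10 at -0.28 ± 0.11, the lowest of the 38. Without lysate 6 the values were 0.11 for Cnot1, 0.040 for Cnot2, 0.14 for Cnot11, -0.062 for Cnot3 and -0.18 for Cnot10. Cnot10 was lower in all 5 lysates and passed as lower under 4 of 14 settings; library totals gave -0.45 (edgeR adjusted p = 0.0337).

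The 4 deadenylase subunits, 2 of each nuclease family, did not pass either. Cnot6 and Cnot6l stood at 0.25 ± 0.13 and 0.40 ± 0.15, and Cnot7 and Cnot8 at 0.30 ± 0.11 and -0.12 ± 0.10. Without lysate 6 these were 0.13, 0.23, 0.19 and -0.14. Cnot8, the most abundant of them per length (22.8 CPM per kb in IgG), had 89.6, 49.9, 62.4, 60.0 and 38.5 CPM in IgG and 75.0, 43.0, 56.3, 56.6 and 40.9 in Musashi IP. Lysates differed more than antibodies did, and the order of the lysates was much the same in both. The ratio of Cnot7 exceeded that of Cnot8 in 5 of 5 lysates, by log2 0.42 ± 0.23 (SD, exact p = 0.0625, adjusted 0.0729), while Cnot6l and Cnot6 differed by 0.15 ± 0.15 (exact p = 0.188). After the length and GC correction Cnot6l and Cnot7 passed as higher (0.56 and 0.45, adjusted p = 0.0305 and 0.0233, edgeR), and all 3 of Cnot6, Cnot6l and Cnot7 passed without lysate 2. Under library totals Cnot8 passed as lower (-0.3, adjusted p = 0.045, edgeR). Cnot4, a ubiquitin ligase that associates with the complex, had 47.1, 62.9, 74.8, 64.4 and 78.7 CPM in IgG and 42.4, 58.6, 58.1, 46.2 and 64.9 in Musashi IP. It was lower in every lysate with overlapping groups (-0.28 ± 0.10, adjusted p = 0.0654, edgeR; -0.22 without lysate 6) and passed as lower under 4 of 14 settings.

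The other deadenylases and the nuclear and exonuclease steps stayed near the IgG level. Pan3, the regulatory subunit of Pan2-Pan3, had 201, 256, 275, 266 and 294 CPM in IgG and 188, 237, 247, 267 and 257 in Musashi IP (-0.11 ± 0.08), and Pan2 and Parn stood at -0.23 ± 0.11 and -0.08 ± 0.09. Dicer1, which cuts precursor microRNAs, had 284, 345, 322, 361 and 358 CPM in IgG and 286, 331, 357, 371 and 357 in Musashi IP (0.03 ± 0.08). Drosha and Dgcr8, which together process primary microRNA transcripts in the nucleus, stood at -0.10 ± 0.09 and -0.03 ± 0.08. For Xrn1, the exonuclease that digests decapped mRNA, IgG libraries held 204, 241, 243, 229 and 269 CPM and Musashi IP libraries 199, 243, 247, 279 and 274 (0.06 ± 0.09). Upf1, the helicase of nonsense-mediated decay, had 115, 91.5, 103, 104 and 80.2 CPM and then 124, 92.8, 100, 95.4 and 89.6 (0.03 ± 0.09). In each of these genes the groups overlapped, and the smallest adjusted p among them was 0.154 (Pan2, edgeR). Pan2, Pan3 and Drosha passed as lower after the length and GC correction (-0.42, -0.25 and -0.30; adjusted p = 0.0422, 0.0444 and 0.046, edgeR), and Pan3 also under library totals.

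In 8 of the 38 genes every Musashi IP library lay above every IgG library, where 9.7% of all genes tested and 13.6% of protein-coding genes did so, and in 0 of 38 below (1.98% and 1.35%). Higher in 5 of 5 lysates were 12 members (31.6%), where 22.4% of all genes tested and 31.1% of protein-coding genes were. Among the 9 enriched genes, Dcp2, Lsm14b, Ago1 and Ago2 kept their calls under all 14 other settings, Ddx6 under 13, Btg1 under 10, Tob2 under 8, and Lsm14a and Tnrc6b under 6 each. No enriched gene changed direction under any of them. Of the 9, Lsm14a, Tob2 and Ago2 share exonic bases with a gene on the opposite strand (the largest overlap being 5.61%, 4.34% and 1.56% of their exons).

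**Figure D3:**
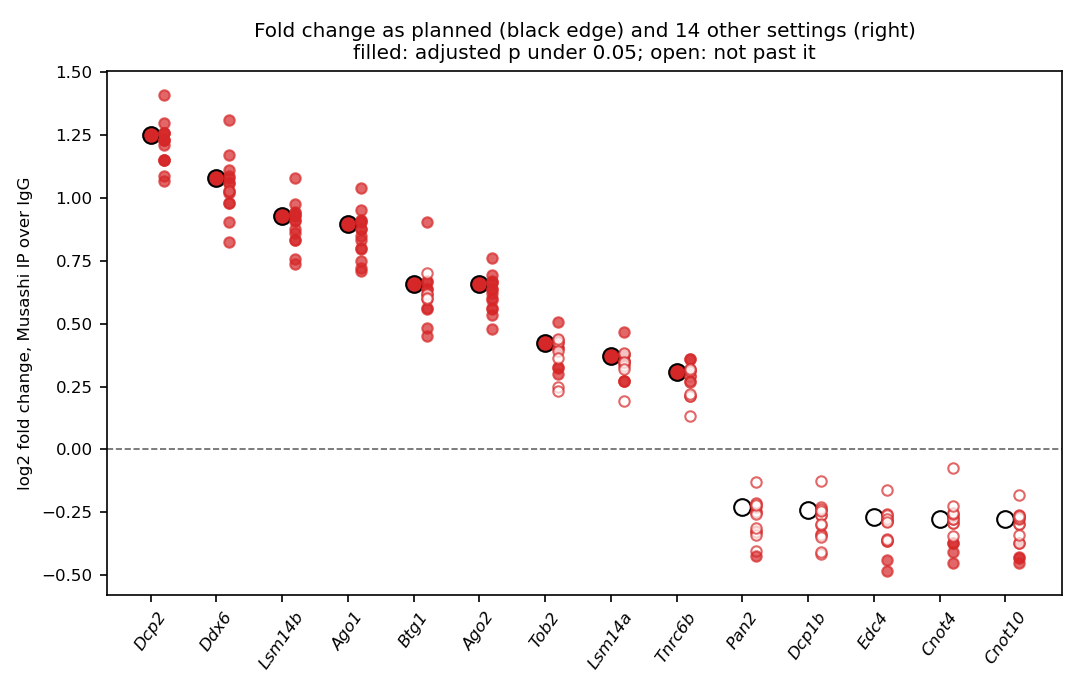
Log2 fold change of Musashi IP over IgG (y axis) for the 9 enriched genes and the 5 lowest, under the design as planned (black edge) and 14 other settings (to its right); filled points have an adjusted p under 0.05. The 4 genes Dcp2, Lsm14b, Ago1 and Ago2 are filled throughout, while Tob2, Lsm14a and Tnrc6b mix filled and open points.

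The enriched members had longer 3' UTRs than the others, a relation that protein-coding genes in general also show. The longest annotated 3' UTR had a median of 4250 nt in the 9 enriched genes and 1574 nt in the other 29, against 2076 nt in enriched and 995 nt in other protein-coding genes. Of the 10 members with at least 4000 nt, 6 were enriched (Ago1, Ago2, Btg1, Dcp2, Ddx6 and Tnrc6b), of 8 members from 2000 to 4000 nt 1 was (Tob2), of 11 from 1000 to 2000 nt 2 were (Lsm14a and Lsm14b), and of the 9 with less than 1000 nt 0 were. Among all protein-coding genes tested, 47.3% with at least 4000 nt were enriched, 41.7% from 2000 to 4000 nt, 30.7% from 1000 to 2000 nt, 18.4% from 500 to 1000 nt and 4.32% below 500 nt. Across the 38 members the log2 fold change correlated with the log2 of 3' UTR length at Pearson 0.49 and Spearman 0.54, and across 13666 protein-coding genes at 0.37 and 0.40. These are correlations across genes that share the same 10 libraries, and genes are not independent replicates.

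In the longest annotated 3' UTRs, the number of Musashi motifs was larger in enriched than in other members, and their density was similar. All 9 enriched members held at least 1 motif, as did 24 of the other 29 (82.8%), and the 5 members with none were Pan2, Parn, Cnot8, Drosha and Upf1. Among protein-coding genes tested, 73.3% held at least 1, rising from 30.2% of 3' UTRs under 500 nt to 99.8% of those of 4000 nt or more. Per kb of 3' UTR the enriched members held 2.30 motifs and the others 2.34, against 1.98 and 1.99 in enriched and other protein-coding genes. Across members the fold change correlated with the number of motifs at Pearson 0.32 and Spearman 0.52, where protein-coding genes gave 0.17 and 0.28. With motifs per kb the values were 0.094 and 0.14 in members and 0.036 and 0.11 in protein-coding genes. The form of the 3' UTR matters here: in the shortest annotated forms the enriched members held 2.35 motifs per kb and the others 1.85 (1.92 and 1.89 in protein-coding genes). The correlation with the number of motifs was then Pearson 0.62 and Spearman 0.69, against 0.17 and 0.24 in protein-coding genes. These shortest forms also differed in length, with a median of 4166 nt in enriched and 890 nt in other members. In enriched and other protein-coding genes it was 1128 and 459 nt. The part of length in this correlation was not tested. Cnot4 shows the gap between the measures: its longest 3' UTR, of 1303 nt, holds 8 motifs, 6.14 per kb. Its mRNA was below the IgG level in each lysate. Its shortest annotated form, of 1060 nt, holds 2 motifs, and which form these pituitaries use was not measured.

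**Figure D4:**
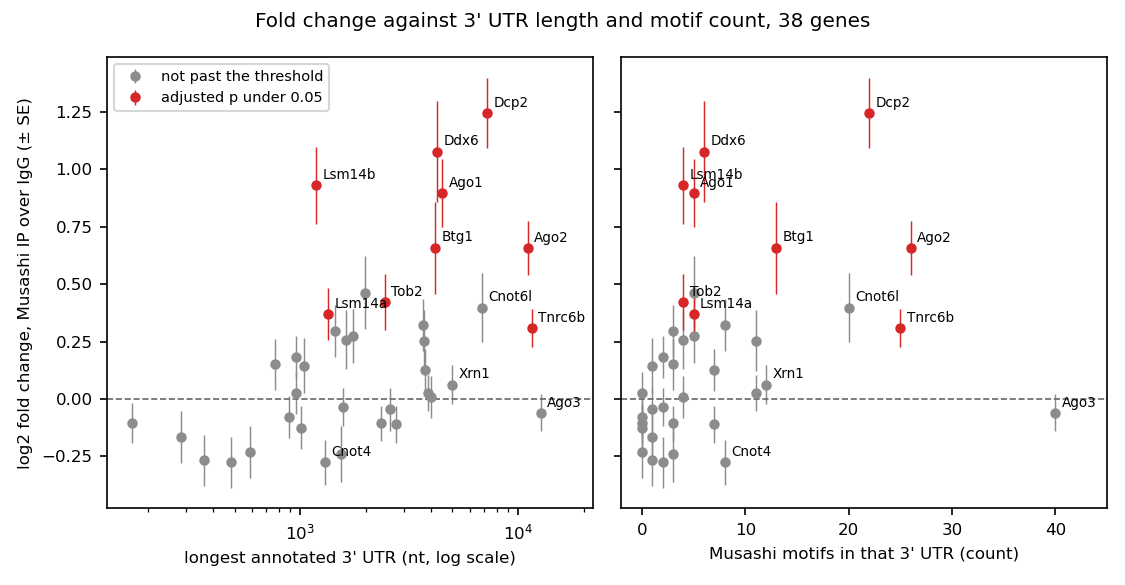
Log2 fold change ± SE (y axis) against the length of the longest annotated 3' UTR (left, nt, log scale) and the number of Musashi motifs in it (right, count) for the 38 genes; red points passed the threshold. Of 10 genes with at least 4000 nt 6 are red, while Ago3, with the longest 3' UTR and 40 motifs, sits at -0.06.

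No difference between females and males in the antibody effect was detected for any member. The female minus male difference of the log2 fold change passed for 0 of 38 members and for 0 of 20550 genes (0%, edgeR, adjusted p under 0.05), with 0 members and 187 genes at an unadjusted p under 0.05; DESeq2 and limma-voom also gave 0 members at either level, and without lysate 2 there were 4 at an unadjusted p under 0.05. The 3 members of smallest unadjusted p were Ago1 (log2 1.04 in females and 0.69 in males, difference 0.35 ± 0.30), Cnot2 (0.26 and -0.02, difference 0.28 ± 0.25) and Lsm14a (0.47 and 0.22, difference 0.25 ± 0.24), each with adjusted p = 1 (edgeR). With 3 and 2 lysates the SE of such a difference was about as large as the difference itself, so effects of this size were not detectable. The females include lysate 6, and without it the median difference over members fell from 0.073 to 0.0064.

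Other genes of mRNA decay and the microRNA pathway included both enriched and depleted genes. Of 67 tested 15 rose and 4 fell, with a median of 0.027. Over all genes tested 18.5% were higher and 8.4% lower, and over protein-coding genes 25.7% and 4.01%. The share of higher genes among the 67 lay between the values of these backgrounds. Paip2b, which keeps the poly(A)-binding protein from its partners, had the largest change among these 67, 5.07-fold (47.0 to 267 CPM on average, log2 2.34, adjusted p = 0.00336, edgeR), and its paralogue Paip2 rose by log2 0.64. Among factors acting at the 5' end 4 of 15 rose and 1 fell, led by Lsm6 (1.31), a subunit of the ring that binds deadenylated tails, the decapping coactivator Pnrc2 (1.20) and the decapping enzyme Nudt16 (1.02), while the nuclear exonuclease Xrn2 fell (-0.36). Of 17 genes listed for the exosome, the Ski complex and related factors, 3 rose (Exosc4 at 1.02, Exosc2 at 0.97 and Exosc3 at 0.80) and 2 fell (Dis3l2 at -0.48 and Exosc9 at -0.36). Among other nonsense-mediated decay factors Smg5 rose (0.48), and of 7 other deadenylases and Btg proteins tested 2 rose, Angel2 (0.88) and Btg2 (0.72). Of 13 other microRNA pathway genes tested 2 rose, the nuclear export receptor Xpo5 (0.42) and the editing enzyme Adar (0.38), and 1 fell, the uridylyltransferase Tut4 (-0.29). The 4 genes that fell were named after their values were seen.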

How the data were processed

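Pituitary RNA from 5 split lysates was sequenced as 10 libraries (TruSeq Stranded Total RNA Gold, per the labels). The authors deposited a table of unnormalized read counts by Ensembl gene. Per the submitters' processing notes, FastQC 0.11.8, Trimmomatic 0.39, STAR 2.7.1a and the build GRCm39 were used. Which program counted the reads, with which annotation and strand setting, and how multi-mapping reads were treated is not given in the sources used here. Symbols, exon lengths and 3' UTRs came from GENCODE M21 (GRCm38), matched for 52135 IDs (94.1%); the rest stayed in the totals, and 12 members share exonic bases with a gene on the opposite strand.

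Tests ran on the counts in R 4.3.3 with edgeR 4.0.16: filterByExpr, TMM factors and the quasi-likelihood test, blocked by lysate (residual degrees of freedom 4, or 3 for the sex difference), adjusted by Benjamini-Hochberg over all genes tested at 0.05. SE is the log2 fold change over the square root of F. Levels are TMM-scaled CPM, per kb of exon where genes are compared; log2 ratios of single lysates used a prior count of 2. The protocol says each lysate was split, so its number pairs the libraries. Deviations from the group means correlated within lysates 2, 3, 5, 6 and 7 at 0.523, 0.679, 0.602, 0.186 and 0.778. In 4 of these lysates the IgG library correlated best with its own Musashi IP library. The exception was lysate 6, whose IgG library reached 0.415 with the Musashi IP library of another lysate. Each lysate was treated as its own pool of mice. No 2 libraries were identical (highest correlation 0.982). Counts carry no molecular identifiers in the sources used here. Alternatives changed the scaling, the tool (DESeq2 1.42.0, limma 3.58.1), the filter, the genes tested, the block, a spline correction for transcript length and GC, and left out each lysate.

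Members, lists and tests were chosen with earlier results of these data known, and the paralogue pairs after their values were seen. Values in every library are given for members past the threshold and for the most abundant of each role per length; from other lists up to 3 genes past the threshold are named, and 1 such gene is not reported here. Cnot1, Ago3 and other members shown in full beyond that rule were added after their values were seen.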

Additional observations from a re-analysis of the deposited data

Results flagged for a closer look

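In 4 of the 76 sets of 5 libraries (38 genes in IgG and in Musashi IP) 1 library lay far from the rest, by a gap of over 0.71 of the set's range; about 1 in 20 sets would do so by chance. Cnot3 in IgG lysate 7 had 93.4 CPM, against 137 to 149 in the other IgG libraries. Cnot6l had 185 CPM in the same library, IgG lysate 7, against 133 to 148. Lsm14a in Musashi IP lysate 6 had 136 CPM, against 87.5 to 96.0. Drosha in IgG lysate 2 had 104 CPM, against 93.9 to 96.4.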

How the results depend on the processing

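With no lysate block (no replicate block), 5 members were higher in place of 9, and 2407 genes in all in place of 3804. Leaving out 1 lysate gave between 4 (without lysate 5) and 13 (without lysate 2) higher members, and between 0 and 2 lower ones, with 5 higher without lysate 3 or 7. The share of all genes tested that was higher moved too, from 18.5% to 8.11% without lysate 5 and 22.6% without lysate 2. It was 14.6% without lysate 3 and 11.1% without lysate 7. Lower genes made up between 0.905% (without lysate 5) and 10.1% (without lysate 3), in place of 8.4%. Of lower members, in place of 0, there were 5 with library totals, 3 with the 2 CPM filter, 1 with protein-coding genes only and 5 with the replicate block and the length and GC correction. Over all genes tested in these settings, in the same order, 19.8%, 17.5%, 9.13% and 7.01% were lower, in place of 8.4%. Sex differences stayed at 0 members in each setting. Of the 38 members 10 changed sign somewhere, in each case without passing. Under library totals these were Cnot2 (-0.031), Tob1 (-0.025), Dcp1a (-0.050), Edc3 (-0.17), Dicer1 (-0.15), Xrn1 (-0.11) and Upf1 (-0.15). After the length and GC correction they were Dcp1a (-0.038), Edc3 (-0.19), Ago3 (0.083), Dicer1 (-0.077) and Upf1 (-0.19). The 2 CPM filter and protein-coding genes only gave Edc3 -0.088 and -0.091, Dicer1 -0.069 and -0.071, Xrn1 -0.034 and -0.037 and Upf1 -0.070 and -0.073. DESeq2 size factors and the DESeq2 test gave Edc3 -0.0097 and -0.0098. Leaving out lysate 2 gave Ago3 0.0014 and Dgcr8 0.020; lysate 3, Edc3 -0.094, Dicer1 -0.042, Xrn1 -0.014 and Upf1 -0.063; lysate 5, Dicer1 -0.0016; lysate 6, Tnrc6c 0.014; lysate 7, Edc3 -0.072, Dicer1 -0.036 and Upf1 -0.078. Over the leave-outs, the other end of the range was Edc3 0.052, Dicer1 0.080 and Xrn1 0.13 without lysate 2, Ago3 -0.16 and Dgcr8 -0.12 without lysate 3, Upf1 0.065 without lysate 6 and Tnrc6c -0.13 without lysate 7. The cause was not tested. In the shortest annotated 3' UTR members held 2.11 motifs per kb in place of 2.33.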
